A study of Mus musculus with 9 samples.

Results

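In mouse embryonic stem cells depleted of Phf19, 657 of the 1180 listed sites of trimethylated lysine 27 of histone H3 (H3K27me3) lay on a place where Phf19 binds in wild-type cells. That is 55.7% of the list (exact 95% interval 52.8 to 58.5). These sites were chosen by their measured positions, as those sharing at least 1 base with a listed Phf19 site, so their overlap with Phf19 and their closeness to it describe the choice and support nothing. All 9 samples of the study come from the mouse line E14Tg2A, kept as stem cells on gelatin, free of feeders, with serum and leukemia inhibitory factor. The H3K27me3 libraries come from control cells (shRd, with the genotype label wild type, 8280 sites) and from cells with a short hairpin RNA against Phf19 (shPhf19, labelled Phf19-depleted, 1180 sites), 1 library each. The Phf19 list (4633 sites, common to 2 replicates) and the Suz12 list (8054 sites, 1 library) come from wild-type cells, so they show where the factors sit without depletion. Below, a remaining site or piece is one listed in depleted cells. No measure of Phf19 in the depleted cells was used here, and each condition has 1 library, so no difference between conditions has a replicate check. The labels give the H3K27me3 antibodies of shRd and shPhf19 the catalogue numbers 07449 and 07450. Whether this antibody difference is real, and its part in any result, was not tested.

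Polycomb repressive complex 2 (PRC2) places methyl groups on lysine 27 of histone H3 and keeps developmental genes silent in stem cells. Suz12 is a core subunit of the complex, without which it does not form. Phf19 is a Polycomb-like protein whose Tudor domain binds methylated lysine 36 of the same histone, a mark of transcribed genes, and which associates with PRC2. H3K27me3 in stem cells covers broad domains around CpG-rich promoters of developmental regulators, among them the Hox genes, which encode the transcription factors that set position along the body axis.

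The sites on Phf19 were short. Their widths ran from 746 bp to 8538 bp with a median of 1529 bp (95% interval of the median 1470 to 1564), and together they covered 1152.7 kb, 55.6% of the length listed in depleted cells. The widest, at chromosome 5, 26332052 to 26340590 (8.54 kb), touched Phf19 over only 348 bp and was covered by Suz12 over 33.6% of its length. The next, at chromosome 16, 35537030 to 35545312 (8.28 kb), had Suz12 over 79.0% of its length and no control site under it. The third, at chromosome 11, 96133158 to 96139784 (6.63 kb), held 3 Phf19 and 3 Suz12 sites, also without a control site. The fourth, of 5.46 kb, ran from 139378331 to 139383792 on chromosome 4. The fifth, of 5.02 kb, ran from 98723770 to 98728793 on chromosome 15, and both lay wholly within Suz12. At the lower end were chromosome 5, 28485576 to 28486322 (746 bp), chromosome 2, 104249153 to 104249971 (818 bp), and chromosome 5, 31393821 to 31394663 (842 bp). Each of these 3 held 1 Phf19 site and lay wholly within Suz12.

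The cut between sites on and off Phf19 was fine at its edge. The smallest overlaps were 6 bp at chromosome 8, 86534082 to 86535512, 14 bp at chromosome 4, 129663583 to 129664979, and 16 bp at chromosome 5, 120878109 to 120879057. Just outside, the nearest Phf19 site was 2 bp away at chromosome 5, 24030905 to 24032017, 6 bp away at chromosome 9, 24576315 to 24578071, and 18 bp away at chromosome 9, 37266412 to 37267478. In all, 119 of the 523 sites off Phf19 had a Phf19 site within 1 kb.

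Most sites met 1 or a pair of Phf19 sites, and wider sites met more. There were 386 sites with 1 Phf19 site, 203 with 2, 51 with 3, 15 with 4 and 2 with 5. Median width was 1413.5 bp with 1 Phf19 site, 1611 bp with 2, 2122 bp with 3 and 3072 bp with 4. Phf19 sites covered a median of 54.4% of the length of a site (interquartile range 32.7 to 82.4). A whole Phf19 site lay inside 260 of the 657 sites, and at least the centre of a Phf19 site inside 502. Across the 657 sites, width and the Phf19 length under it had a Spearman rho of 0.50 and a Pearson r of 0.61, a description over sites that share 1 library and in which a longer site can hold more Phf19.

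Suz12 was not used to choose the sites, and it was listed at nearly every one. It overlapped 655 of the 657, or 99.7% (98.9 to 99.96), where the whole list of depleted cells gave 82.5%. Phf19 sites in control domains that held no such piece overlapped Suz12 at 94.6% (93.5 to 95.5). Outside control domains, Phf19 sites not under such a piece overlapped Suz12 at 10.3% (8.7 to 12.2). Those under one did so at 97.4% (90.8 to 99.7). Inside control domains a choice by Phf19 thus largely brings Suz12 with it, and its part outside them was not tested. Of the 657 sites, 563 met a single Suz12 site, 81 met 2, 10 met 3 and 1 met 4. Suz12 covered the whole length of 369 sites, 56.2% (52.3 to 60.0). The 2 sites without Suz12 were a 1.72 kb site on chromosome 12, 57623107 to 57624824, and a 1.16 kb site on chromosome 2, 146658088 to 146659248. Their nearest Suz12 centres were 1343.5 bp and 2763.5 bp away, and both lay inside control domains, of 25.2 kb and 6.67 kb.

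By centre, the sites lay nearer to Phf19 than to Suz12. The median distance from the centre of a site to the nearest Phf19 centre was 466 bp (424.5 to 495.5), with 185 sites within 250 bp, 363 within 500 bp and 569 within 1000 bp. To the nearest Suz12 centre the median was 969 bp (889 to 1026), with 82, 167 and 344 sites within the same limits. The Phf19 centre was the nearer of the 2 at 495 sites, 75.3% (71.9 to 78.6). The choice of the sites by overlap with Phf19 bounds the first distance and not the second, so this order is a description. Among the 339 sites that met exactly 1 Phf19 and 1 Suz12 site, Phf19 was the nearer at 247 (72.9%, 67.8 to 77.5), with medians of 553 bp and 942.5 bp. The same bound holds there, and the Suz12 sites, with a median width of 4012 bp, leave more room.

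**Figure D1:**
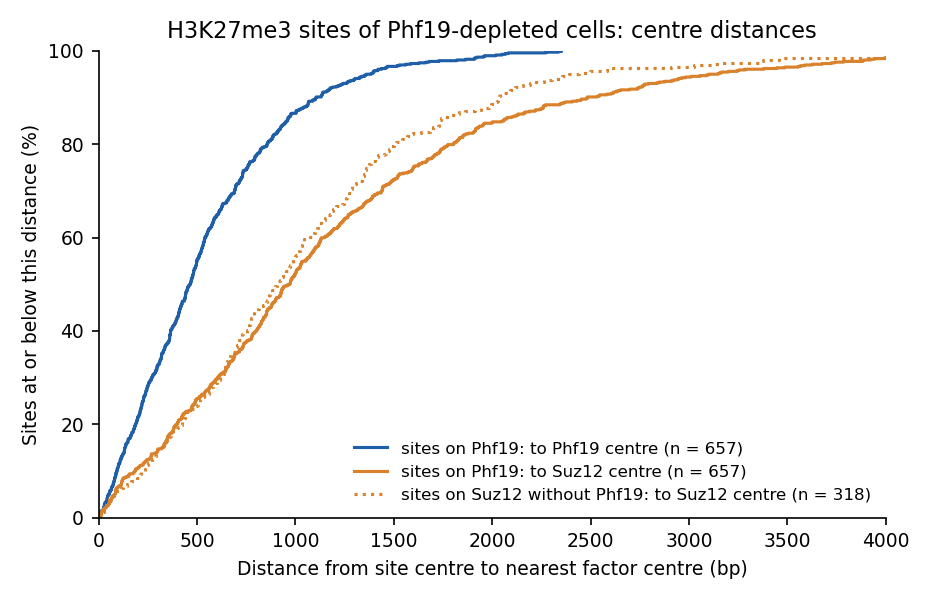
Cumulative share of H3K27me3 sites of Phf19-depleted cells (y axis, %) by distance from the site centre to the nearest factor centre (x axis, bp). Solid lines are the 657 sites on Phf19, to Phf19 (blue) and to Suz12 (orange); the dotted line is the 318 sites on Suz12 without Phf19. The blue line reaches 55.3% at 500 bp, where the solid orange line is at 25.4% and the dotted one at 24.2%.

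The closest centres coincided within a few bases. They were at chromosome 5, 102088754 to 102089942 (0 bp), chromosome 5, 36739292 to 36740518 (1.5 bp), chromosome 8, 87229598 to 87230761 (1.5 bp), chromosome 2, 74534004 to 74535812 (2.0 bp), and chromosome 18, 64497294 to 64498260 (2.5 bp). The Suz12 centre was 380.5 to 2774 bp away at these 5. The farthest centres were at chromosome 15, 102802669 to 102804787 (2352 bp), chromosome 6, 6832189 to 6833861 (2336.5 bp), the widest site on chromosome 5 (2273 bp), chromosome 5, 148538213 to 148539820 (2081 bp), and chromosome 2, 74507677 to 74510491 (2066.5 bp). Phf19 covered 2.81% to 18.5% of these 5 sites.

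Suz12 centres were mostly outside the sites. A Suz12 centre lay inside 271 of the 657 sites, 41.2% (37.5 to 45.1). Among the sites that met 1 Suz12 site, the centre of the H3K27me3 site was off by a median of 46.8% of the distance from the Suz12 centre to its edge (interquartile range 23.8 to 72.3). The Suz12 sites that carried them had a median width of 4517 bp.

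In the simplest arrangement, a control domain had 1 Phf19 site and 1 site left in depleted cells. The remaining site overlapped Phf19 by the choice of the sites, with its centre mostly off the Phf19 centre. There were 108 such domains, with a median width of 4570.5 bp in control cells and 1386 bp for the remaining site. The site centre was 587 bp from the Phf19 centre in the median (477.5 to 696), and the centre of the control domain was 596 bp from it (494 to 747.5). The remaining site was the nearer of the 2 in 61 of 108 domains (56.5%, 46.6 to 66.0), an interval that holds 50%. It lay on the same side of Phf19 as the domain centre in 77 of 108 (71.3%, 61.8 to 79.6). In 106 of these domains the Phf19 site also overlapped Suz12, and there the remaining site lay on the Suz12 side of Phf19 in 37 (34.9%, 25.9 to 44.8) and on the opposite side in 69. Its median offset was -389.2 bp (-483 to -168) where positive values point to the Suz12 centre, which itself was 330.2 bp from the Phf19 centre in the median. The domain centre lay on the Suz12 side in 46 of the 106 (43.4%, 33.8 to 53.4). Where it did, the remaining site was on that side in 26 of 46 (56.5%, 41.1 to 71.1), and where it did not, in 11 of 60 (18.3%, 9.52 to 30.4). This look at sides was chosen after the data were seen.

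**Figure D2:**
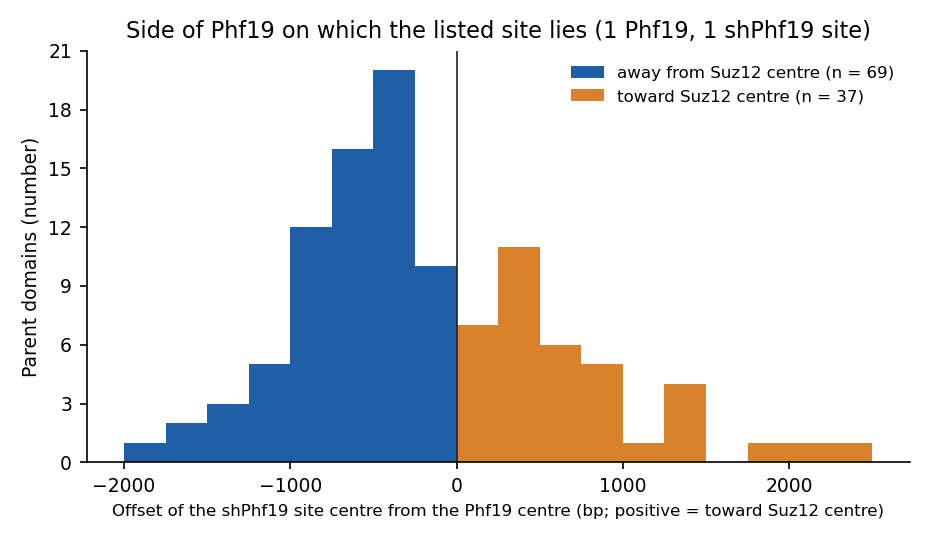
Histogram of 106 control domains with 1 Phf19 site on Suz12 and 1 remaining H3K27me3 site. The x axis is the offset of the remaining site's centre from the Phf19 centre (bp, positive toward the Suz12 centre, bins of 250 bp) and the y axis the number of domains. In 69 domains (blue) the site lies away from the Suz12 centre and in 37 (orange) toward it.

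Nearly all sites lay inside control H3K27me3 domains and took up a small part of them. Of the 657, 609 overlapped a control site, its parent domain, or 92.7% (90.4 to 94.6), where the whole list of depleted cells gave 86.2%. The whole length of 596 sites was inside control sites. The 609 sites fell into 423 parent domains with a median width of 7195 bp (6551 to 7644). Each site spanned a median of 16.9% of its parent (15.3 to 18.5, interquartile range 10.2 to 29.1). Under 50% was spanned by 576 of 609 sites (94.6%, 92.5 to 96.2), where the whole list gave 84.1%. A single site, the widest on chromosome 5, was wider than its parent, 8.54 kb against 7.58 kb (113%). Summed over the 423 parents, 3794.1 kb of control domain held 1040.6 kb of sites on Phf19 (27.4%), and 30.6% with all sites of depleted cells counted. The centres lay away from the ends of the parent, as they did over the whole list of depleted cells. Between 25% and 75% of its length were 434 of 609 (71.3%, 67.5 to 74.8), where the whole list gave 72.8%. Within the outer 10% at either end were 20 (3.28%), where the whole list gave 4.33%.

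The width of a site hardly followed that of its parent. From the narrowest to the widest of 4 parent width classes, the median parent grew from 3467 bp to 20185 bp, while the median site grew from 1373 bp to 1685 bp. The share of the parent spanned by 1 site went from 40.6% (37.7 to 43.8) to 8.25% (7.78 to 9.08). Across the 609 sites, site width and parent width had a Spearman rho of 0.21 and a Pearson r of 0.18, given as a description, since sites of 1 parent share its width and all sites share 1 library. The lists hold no heights, so how much signal stood outside the listed pieces is not known.

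**Figure D3:**
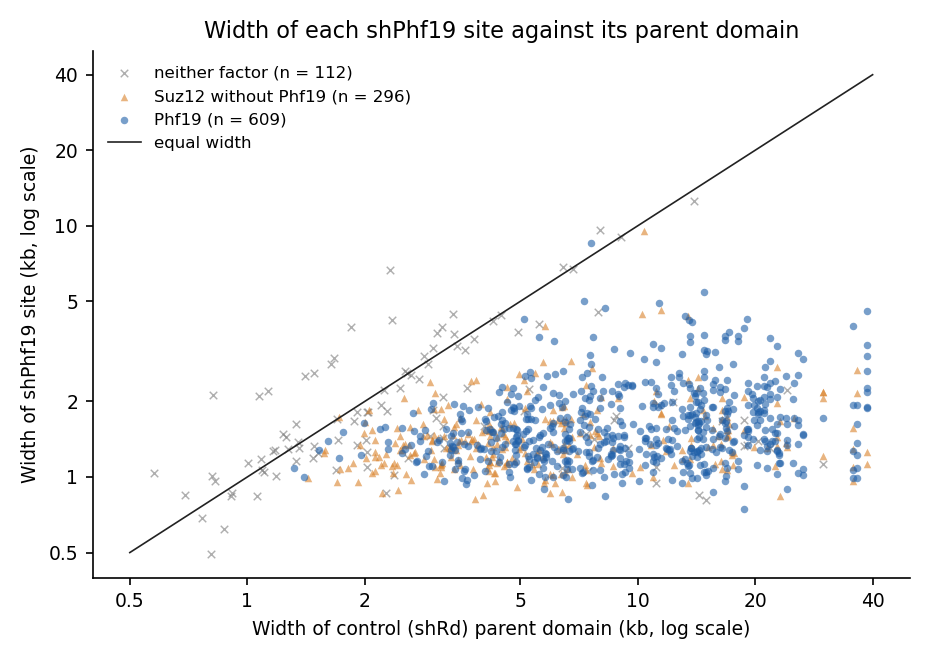
Width of each shPhf19 site (y axis, kb, log scale) against the width of its control parent domain (x axis, kb, log scale) for 609 sites on Phf19 (blue circles), 296 on Suz12 without Phf19 (orange triangles) and 112 on neither (grey crosses); the line marks equal width. The median of the blue points is 1373 bp in the narrowest class of parents and 1685 bp in the widest, where the middle 50% run from 1330 to 2201.5 bp, and 1 blue point lies above the line.

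Within the parents, Suz12 covered more of the remaining pieces than of the stretches beside them. Over all shPhf19 sites in a parent, on Phf19 or not, Suz12 covered a median of 97.9% of the listed part (93.7 to 99.6) and 55.8% of the rest of the same domain (53.1 to 59.1). Coverage was higher in the listed part in 371 of 423 parents, equal in 11 and lower in 41. Summed by length, Suz12 covered 86.0% of the listed part and 56.9% of the rest. Phf19, on which the sites were chosen, covered 50.3% and 25.5%. Phf19 sites in the parents lay mostly on Suz12, 98.1% of those under a piece and 95.3% of the others. A choice on Phf19 thus also favours Suz12 in the listed part, and how far was not tested.

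Of the Phf19 sites, 958 lay under these 657 H3K27me3 sites, where 20.7% is the share of the whole Phf19 list. Their share grew with the width of the Phf19 site, from 8.11% in the narrowest of 5 classes (6.44 to 10.1, 165 to 353 bp) to 49.2% in the widest (45.9 to 52.5, 884 to 8335 bp). A wider site also meets others more easily, and that part was not separated. A parent holds a piece on Phf19 by the choice of the sites, which raises the share of its Phf19 sites under a piece. Within the parents, 882 of 1370 Phf19 sites, 64.4% (61.8 to 66.9), lay under a remaining piece. Their median width was 821.5 bp (755 to 884), against 569 bp (538 to 603) for the 488 that did not. Nearly all of both kinds lay on Suz12, 98.1% and 95.3%. In 155 parents that held 1 remaining piece on Phf19 and several Phf19 sites, not all under it, the piece lay on the widest Phf19 site in 96 (61.9%, 53.8 to 69.6) and on the narrowest in 58 (37.4%, 29.8 to 45.5). On average 46.1% of the Phf19 sites of such a parent lay under the piece.

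Control domains with more Phf19 sites more often kept a piece on Phf19, and they were also wider. Such a piece was found in 423 of the 1776 control domains with Phf19, 23.8% (21.9 to 25.9). A further 69 of the 1776 (3.88%) were listed only by sites off Phf19. Over all 8280 control sites 8.96% were overlapped by a site of depleted cells, on Phf19 or not, so that share is not of the same measure as the 23.8%. A requirement that the piece meet Phf19 favours domains with more of it. The share was 12.0% (10.0 to 14.2) with 1 Phf19 site, 20.1% (16.5 to 24.2) with 2, 43.0% (35.4 to 51.0) with 3, 68.1% (56.0 to 78.6) with 4, 58.1% (42.1 to 72.99) with 5 and 94.7% (86.9 to 98.5) with 6 or more. Median domain width over the same groups went from 3369 bp with 1 to 15490 bp with 6 or more. Within the widest of 4 width classes (6132 to 38796 bp), 33.3% (23.6 to 44.2) of domains with 1 Phf19 site and 60.8% (55.5 to 65.9) of those with more kept a piece, with medians of 7127 bp and 9439 bp. In the next class down (4092 to 6128 bp) the shares were 18.8% (14.0 to 24.3) and 29.9% (23.7 to 36.7), with overlapping intervals, and in the class below that 10.9% and 11.3%. In the narrowest class (743 to 2830 bp) they were 3.11% (1.56 to 5.49) and 12.2% (6.26 to 20.8), with intervals that did not overlap.

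About 3 in 4 parents held 1 piece on Phf19, and the rest were split into several. A single piece was found in 315 of 423 parents, 2 in 63, 3 in 25, 4 in 13, 5 in 3, 6 in 3 and 8 in 1. Split parents numbered 108, or 25.5% (21.4 to 30.0), and held 294 of the 609 pieces. With sites at most 1 kb apart merged, 16.8% of parents were split. Their median width was 14474.5 bp and that of unsplit parents 5815 bp, with medians of 5 and 2 Phf19 sites. The pieces together covered a median of 33.2% of a split parent (28.9 to 36.2) and 26.99% of an unsplit one (25.6 to 29.4).

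Parents with more Phf19 sites, which were also wider, were more often split. Only pieces that meet Phf19 are counted, so the number of Phf19 sites limits the number of pieces by the choice of the sites, and the counts by Phf19 number are a description. Several pieces were found in 1 of 117 parents with 1 Phf19 site (0.855%, 0.0216 to 4.67), 12.2% of those with 2, 19.7% with 3, 32.7% with 4, 52.0% with 5 and 74.6% with 6 or more (62.9 to 84.2). Among the widest parents, from 12123 to 38796 bp, 65 of 81 with 4 or more Phf19 sites were split (80.2%, 69.9 to 88.3) and 8 of 25 with fewer (32.0%, 14.9 to 53.5). From 7197 to 12041 bp the counts were 16 of 44 (36.4%, 22.4 to 52.2) and 7 of 61 (11.5%, 4.74 to 22.2). From 4824 to 7195 bp the order was the other way, with wide overlapping intervals. The counts there were 1 of 17 (5.88%, 0.149 to 28.7) and 10 of 89 (11.2%, 5.52 to 19.7). From 1317 to 4804 bp, 0 of 3 and 1 of 103 were split. In these classes parent width still varied, and its part was not tested. Over the 423 parents the number of pieces had a Spearman rho of 0.59 with parent width, given as a description.

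**Figure D4:**
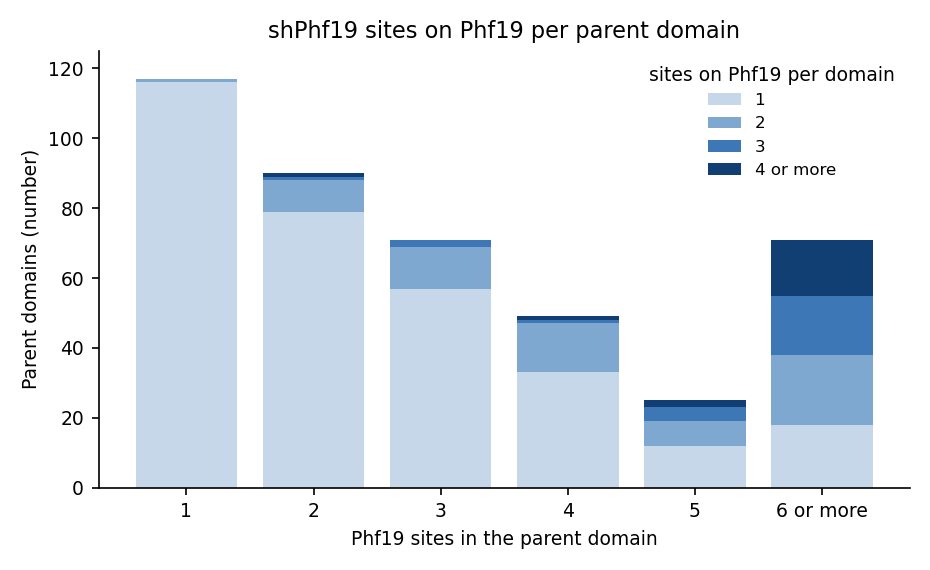
Number of control parent domains (y axis) by the number of Phf19 sites they hold (x axis), with bars divided by how many shPhf19 sites on Phf19 each domain holds. Of 117 domains with 1 Phf19 site, 116 hold a single piece; of 71 domains with 6 or more, 18 do and 16 hold 4 or more pieces, a contrast that the choice of sites on Phf19 helps to set.

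The gaps between neighbouring pieces of 1 parent were short, and most lay wholly in Suz12. There were 168 gaps between neighbours that both lay on Phf19, with a median of 911 bp (721 to 1296), and 87 were at most 1 kb long. Suz12 covered 119 gaps whole (70.8%, 63.3 to 77.6) and 8 not at all. A Phf19 centre lay in 88 gaps (52.4%, 44.6 to 60.1) and a Suz12 centre in 45 (26.8%, 20.3 to 34.1). A single Phf19 site bridged 46 gaps, reaching into the piece on either side, and 33 gaps held a whole Phf19 site.

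The parent with the most pieces, chromosome 6, 52171839 to 52210635 (38.8 kb), held 8 pieces on Phf19 that covered 56.2% of it, and 12 of its 15 Phf19 sites lay under them. At chromosome 11, 96180330 to 96216880 (36.6 kb), 6 pieces covered 22.5%, with 8 of 14 Phf19 sites under them. At chromosome 2, 33478474 to 33504191 (25.7 kb), 6 pieces covered 44.1% and met all 11 Phf19 sites. At chromosome 2, 71363404 to 71384496 (21.1 kb), 6 pieces covered 56.6% and met all 9. So in 2 of these 4 parents every Phf19 site met a piece, and in the other 2 some did not.

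The next 3 held 5 pieces each. At chromosome 2, 74559320 to 74595016 (35.7 kb), they covered 25.9% of the domain and met 5 of 9 Phf19 sites. At chromosome 10, 42287973 to 42314501 (26.5 kb), they covered 30.1% and met 6 of 8. At chromosome 2, 38194881 to 38216718 (21.8 kb), they covered 56.8% and met all 10. The last 3 of the 10 held 4 pieces each. On chromosome 8, 59800563 to 59824706, these covered 21.8% of 24.1 kb and met all 5 Phf19 sites. On chromosome 15, 102762909 to 102785658, they covered 33.9% of 22.8 kb and met 5 of 6. On chromosome 19, 43669516 to 43691021, they covered 27.8% of 21.5 kb and met all 6. In all 10, Suz12 covered more of the listed part than of the rest, an order that the choice on Phf19 favours. The smallest difference was on chromosome 8 (58.6% and 56.1%).

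**Figure D5:**
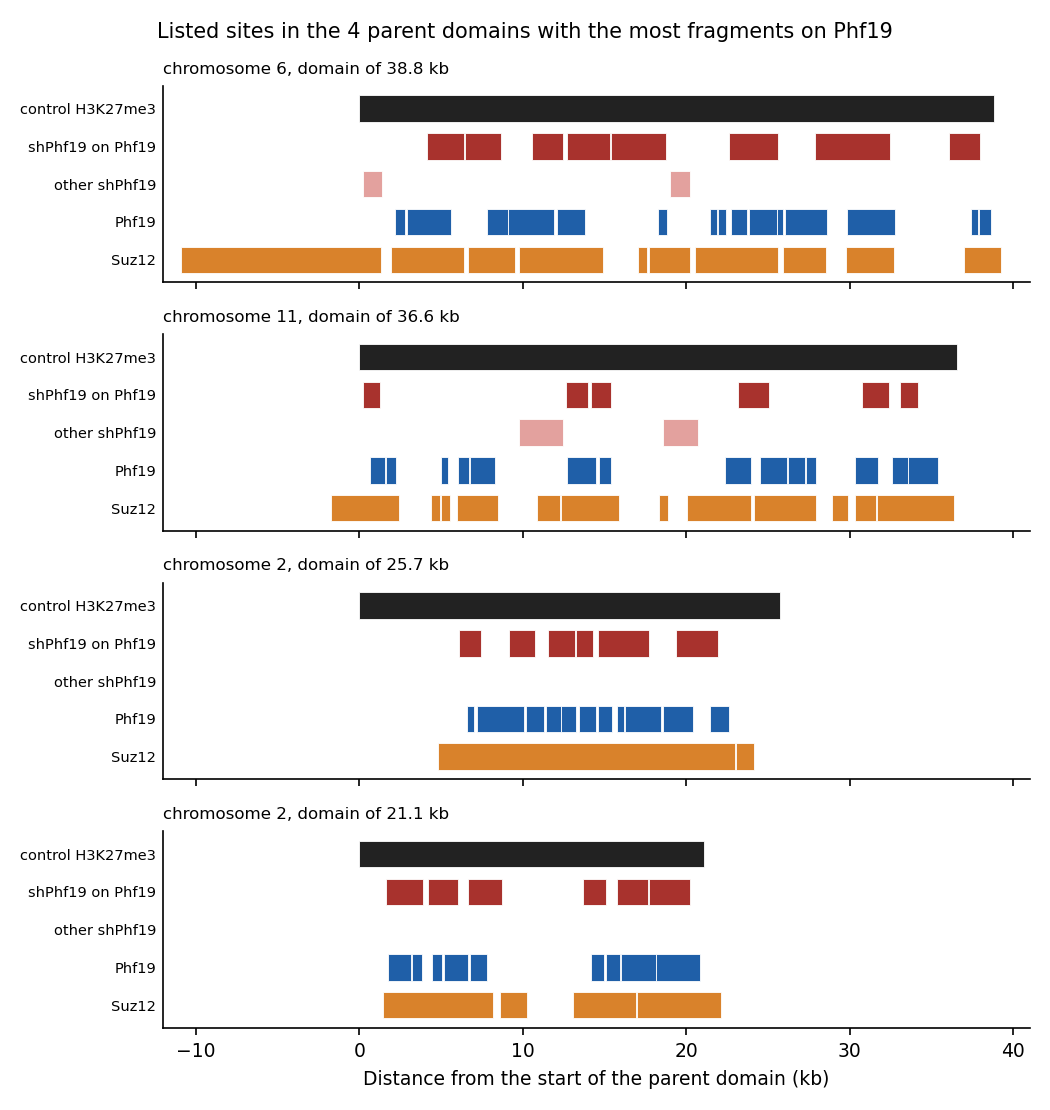
Listed sites in the 4 parent domains with the most pieces on Phf19, by distance from the start of the domain (x axis, kb). Bands show the control H3K27me3 domain (black), shPhf19 sites on Phf19 (red), other shPhf19 sites (pink), Phf19 sites (blue) and Suz12 sites (orange). The 8, 6, 6 and 6 red pieces are separated by gaps, and in the 2 lower domains all Phf19 sites meet a red piece.

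Some wide parents kept a single piece on Phf19. The widest, chromosome 18, 37890549 to 37920416 (29.9 kb), had 1 of its 5 Phf19 sites under a piece that covered 5.77%, although it held 6 shPhf19 sites in all. At chromosome 11, 96221760 to 96241393 (19.6 kb), the piece covered 10.9%, and Suz12 covered 81.7% of it but 8.0% of the rest of the domain. At chromosome 13, 99121633 to 99140368 (18.7 kb), the piece covered 4.91% and met 1 of 4 Phf19 sites. That domain held 4 shPhf19 sites, and over all 4 Suz12 covered less of the listed part (27.8%) than of the rest (48.8%), the other order from most parents. At chromosome 11, 84327365 to 84346067 (18.7 kb), 1 piece of 3.93 kb covered 21.0% and met 4 of 7 Phf19 sites. At chromosome 19, 37759527 to 37777161 (17.6 kb), which held 2 shPhf19 sites, the piece on Phf19 covered 12.1% and met 1 of 3.

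Set beside the 318 sites of depleted cells on Suz12 without Phf19, the sites on Phf19 came from wider parents. Their parents had medians of 7195 bp (6551 to 7644) and 4618 bp (4263 to 5217). The domains are partly the same, since 133 of the 296 comparison sites with a parent lay in one that also held Phf19, and 68 in one that also held a site on Phf19. The sites themselves had medians of 1529 bp (1470 to 1564) and 1355 bp (1313 to 1417). These kinds are split by overlap with Phf19. Wider control domains held more Phf19 sites, and a wider site meets others more easily. The choice of the sites favours both orders of width, and how far was not tested. Both kinds overlapped a control site about as often, 92.7% and 93.1%, a difference of -0.388 percentage points (Newcombe 95% interval -3.61 to 3.38). Other sites of depleted cells shared the parent at 52.7% of sites on Phf19 and 28.7% of those without, a difference of 24.0 points (17.3 to 30.2). That difference went with parent width. In 4 classes of parent width, the shares were 1.06% and 3.76%, 22.4% and 17.6%, 61.5% and 59.0%, and 97.2% and 88.0%, with overlapping intervals in each class. The same held for the part of the parent spanned, 16.9% and 27.4% in the median overall but 40.6% and 41.4% in the narrowest class and 8.25% (7.78 to 9.08) and 7.14% (6.52 to 8.53) in the widest.

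Distance to Suz12 was also close between these kinds, 969 bp (889 to 1026) and 905.8 bp (809.5 to 991.5) in the median, and a Suz12 centre lay inside 41.2% and 38.4% of sites. The Suz12 sites differed in width, with medians of 4517 bp (4285 to 4752) on Phf19 and 2652.5 bp (2497 to 2800) without, among sites that met 1 Suz12 site. Relative to the Suz12 site, those on Phf19 were less far out, at 46.8% (43.1 to 50.8) of the way to its edge against 71.4% (63.6 to 78.1). These kinds are split by overlap with Phf19, which bears on where in a Suz12 site each can lie. The part of that split in these contrasts was not tested. The intervals take each site as an independent draw, which neighbours in 1 domain are not.

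Most loci were single sites, and a few held many. Joined where neighbours were at most 20 kb apart, the 657 sites formed 375 loci, of which 249 held a single site. The 4 largest loci held 74 sites, 11.3% of all. They lay at chromosome 6, 52106439 to 52225232 (23 sites in 118.8 kb), chromosome 15, 102743391 to 102848440 (23 in 105.0 kb), chromosome 11, 96133158 to 96228264 (16 in 95.1 kb), and chromosome 2, 74494204 to 74545257 (12 in 51.0 kb). From general knowledge of the mouse map, these lie at the places of the Hoxa, Hoxc, Hoxb and Hoxd gene clusters. A locus ends where the next site is over 20 kb away, so it need not span its cluster. On chromosome 2 the parent at 74559320 to 74595016, with 5 sites on Phf19, starts beyond the locus and is not counted in it. No mm9 annotation was used here to check single genes, or the extent of a cluster, against these loci. A RefSeq gene table of another build lists 11 Hoxa genes on chromosome 6, 10 Hoxb on chromosome 11, 9 Hoxc on chromosome 15 and 9 Hoxd on chromosome 2, each cluster with 0 other coding genes inside it.

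In these 4 loci most Phf19 sites lay under remaining H3K27me3. The loci were picked for the most sites on Phf19, and each runs from its first to its last such site. That choice raises the counts met and the H3K27me3 coverage given here. Over the whole Phf19 list, 20.7% lay under a site. There were 49, 41, 38 and 18 Phf19 sites in the loci on chromosomes 6, 15, 11 and 2, of which 40, 34, 27 and 15 were met. The H3K27me3 sites covered 47.3%, 41.1%, 33.1% and 57.8% of the loci, and Suz12 68.9%, 67.2%, 73.8% and 78.7%. Their median width was 1808 bp (1634 to 2151), against 1504 bp (1444 to 1549) for the other 583 sites. Distances to Phf19 had medians of 458.5 bp and 466 bp, with overlapping intervals.

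The same 4 loci held most of the sites without a control domain. Of 48 such sites, 40 were there, and 8 were among the other 583 sites. So 45.9% of the sites in the 4 loci (34.3 to 57.9) overlapped a control site, against 98.6% elsewhere (97.3 to 99.4). Control sites covered 73.7% of the locus on chromosome 6, 39.3% on chromosome 15, 49.8% on chromosome 11 and 33.4% on chromosome 2. The locus on chromosome 2 leaves out the 35.7 kb control domain beyond its end. The 48 sites lay a median of 12956 bp from the nearest control site (9084 to 17011) and had a median width of 1700.5 bp (1562 to 2220). The widest were those on chromosomes 16 and 11 named above, followed by a pair on chromosome 2 and 1 on chromosome 15. The pair lay at 74524525 to 74529271 (4.75 kb, on 4 Phf19 sites) and at 74513842 to 74518382 (4.54 kb, on 2). The site on chromosome 15, 102838427 to 102842841 (4.41 kb), met 3. Whether the mark was absent in control cells there, or the control list left these stretches out, was not tested.

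Outside the 4 largest loci the next groups held 6 sites each. They lay at chromosome 2, 38192276 to 38212124, chromosome 2, 71365003 to 71383591, chromosome 2, 33484545 to 33500381, chromosome 11, 118895744 to 118911669, and chromosome 3, 128899985 to 128927926. The sites covered 73.5%, 64.2%, 71.6%, 67.6% and 33.2% of these loci, and the locus on chromosome 4, 139376713 to 139390650, with 5 sites, was covered over 89.9%. Each locus runs from its first to its last site, which raises the share covered. In each of these 6 loci control H3K27me3 covered at least 98.3% of the span, unlike in the 4 largest loci.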

How the data were processed

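The authors deposited 4 lists of sites, each giving chromosome, start and end on the mouse build mm9 and no score or height. The submitters' processing notes name Bowtie 0.12.7, MACS 1.4.1 and mm9, with no role for any. No source used here gives the thresholds, control libraries or filters. The design text limits the Phf19 list to sites seen in both replicates. Read depth is unknown, since the lists hold no counts. H3K36me3, H3K36me2 and IgG samples were not analysed here.

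Sites overlapped when they shared at least 1 base. Width is end minus start, and the centre is their midpoint. The parent domain of a site is the shRd site that overlaps it most. Shares carry exact Clopper-Pearson 95% intervals, medians exact order-statistic intervals and differences of shares Newcombe intervals; all cover counting error only and treat sites as independent. With 1 library per condition no p-value was computed.

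Members, lists and rules were chosen with earlier results of these data known. Named by rule were the 5 widest and 3 narrowest sites, the 5 nearest to and 5 farthest from Phf19 by centre, the 10 parents with the most pieces, the 5 widest parents with 1 piece, the 5 widest sites without a parent, the 3 sites on either side of the overlap limit, and the 10 loci with the most sites. The 2 sites without Suz12 were named after their values were seen. Alternatives were the overlap definition, autosomes, removal of the 4 largest loci, merging within 1 kb, a width minimum and single-factor sites. Gene lists were not used, since no mm9 annotation was used, and no sequence was read because no genome of that build was used. Overlap counts equalled those of bedtools 2.31.1 in 12 of 12 comparisons, and distances were tested on simulated data (1011 of 1011 correct). Scripts ran in Python 3.11.15 with pandas 2.3.3 and numpy 2.4.6; intervals came from statsmodels 0.14.6 and scipy 1.17.1, and plots from matplotlib 3.10.9.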

Additional observations from a re-analysis of the deposited data

How the results depend on the processing

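Of 52 alternatives, 36 gave a value inside the 95% interval of the main one, 16 lay outside it and 0 reversed the difference that can change sign. No site on Phf19 lay on X or Y. The limit to autosomes therefore could not move values taken from these sites and their parents alone, and those repeats are among the 36. With the Phf19 centre required inside the site, 42.5% of the list qualified, the distance to Phf19 was 359.8 bp, 50.6% of Phf19 sites in parents lay under a piece, 100% of sites met Suz12, and the difference in shared parents from sites on Suz12 without Phf19 was 17.2 points. Under a minimum overlap of 50% of the shorter site, the list share was 45.8%, the share on Suz12 94.3% and the Phf19 sites under a piece 51.8%. Autosomes gave a list share of 58.6%. Without the 4 largest loci 98.6% of sites overlapped a control site. Merging within 1 kb left 542 sites on Phf19, of which 95.2% had a parent and spanned 22.8% of it, and 16.8% of parents were split. Sites at or above the list's median width spanned 19.7% and met 58.0% of Phf19 sites in parents. Sites with exactly 1 Phf19 site lay 566.5 bp from it. No paired analysis was possible because no replicate numbers stand in the lists, and leaving out a Phf19 replicate was not possible with 1 joint list. A stricter overlap, merging and fewer sites change these values by construction, and what else moved them was not tested. A site under the peak threshold is not listed, so absence from a list is not absence of the mark.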

Other observations

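A further 69 of the 1776 control domains with Phf19, 3.88% (3.04 to 4.89), were listed in depleted cells only by sites that missed Phf19. Among the sites of depleted cells that missed Phf19 in control domains with Phf19, 70 were measured to the nearest Phf19 site. Their median gap was 361 bp (238 to 478), from 2 bp to 4443 bp. These 70 sites were not matched to the 69 domains. The 69 domains had a median width of 5741 bp (4629 to 6444). That lay between the 7195 bp of domains with a piece on Phf19 and the 3566 bp (3456 to 3686) of the 1284 domains no longer listed.

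By chromosome, 0 of the 43 sites of depleted cells on X and 0 of the 16 on Y lay on Phf19, where the Phf19 list itself has 36 and 1 sites. On chromosome 14 it was 9 of 87 (10.3%), against 46.7% to 73.6% on the other autosomes. Sites on Phf19 per 100 listed Phf19 sites ranged from 6.43 on chromosome 14 to 27.5 on chromosome 15, where 23 of 53 lie in the Hox locus.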
